A study of Sus scrofa with 2 samples.

Results

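Inhibin subunit alpha (INHA) and follistatin (FST) are the 2 genes described here, out of 11938 gene symbols on the porcine EMPV1 microarray. They were found as the probes whose platform annotation carries either symbol, and each had 1 probe, EMPV1_32972 for INHA (transcript NM_214189) and EMPV1_03293 for FST. Probes of the inhibin beta subunits, whose symbols start with INHB, were added as context and numbered 3, for 2 genes (INHBA and INHBE). Both genes were chosen by the values that follow, because their ratios kept their sign when the dyes were exchanged, so those values are a description and no test was made of them.

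The samples were 2 single cumulus-oocyte complexes (COC), labelled COC7 and COC4, each an oocyte with its surrounding cumulus cells, taken from mature follicles of Large White ovaries collected at a slaughterhouse. RNA of both complexes was hybridized on each of 2 two-colour arrays: array 1 held COC7 in Cy5 and COC4 in Cy3, and array 2 held COC4 in Cy5 and COC7 in Cy3. Each side of the comparison was therefore 1 COC, the arrays were technical repeats, and the variation among complexes was not measured.

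Inhibin is a glycoprotein hormone of the granulosa and cumulus cells, built of the alpha subunit joined to a beta subunit, and it lowers the release of follicle-stimulating hormone by the pituitary. Beta subunits joined to each other form activin, which acts the opposite way through serine/threonine kinase receptors and SMAD proteins. Follistatin is a secreted protein that binds activin and keeps it from its receptors. Both genes are known products of granulosa cells of growing follicles, so a difference in either between single complexes is a question that a two-colour comparison of this kind can pose.

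The deposited value of a probe on an array is a log2 ratio of its channels, read here as Cy5 over Cy3 because the labels list the Cy5 channel first. The sources used here do not give that direction, and every sign below turns if it was the opposite. From the values on the arrays, 2 quantities were made. The dye part is their mean as deposited, which keeps what follows the dye and cancels what follows the COC. The turned mean is the mean after the sign of array 2 is turned, which keeps what follows the COC and cancels what follows the dye, and values above 0 lie on the COC7 side. With 2 arrays, the distance from the turned mean to either array equals the size of the dye part. That distance holds any dye effect shared by the arrays, which the turned mean cancels, together with any chance variation. The arrays cannot separate these, so the distance is not an error of the turned mean, and no such error can be given for a probe. Over 153 negative control spots the turned mean had an SD of 0.10, which is a spread among spots and not among complexes. Channel signals were not analysed here, and the study's own selection of spots above background in COC was not used to judge either probe. In the study's symbol lists, INHA is under those found only in embryos. Its ratios may therefore come from a spot near background, which was not tested. For FST, too, the level and its distance from background are not given here.

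INHA, the subunit that makes a dimer an inhibin, gave, as deposited, -2.70 for array 1 and -0.97 for array 2 (log2 ratios). Both values lay below 0, on the Cy3 side, although Cy3 carried COC4 on the first array and COC7 on the second. These ratios are 6.48-fold and 1.96-fold, so the size of the difference between the channels was unequal on the 2 arrays. The dye part of INHA was -1.83, or 3.57-fold. Its turned mean was -0.86, or 1.82-fold, on the COC4 side, with each array 1.83 away from it. After turning, array 1 put INHA on the COC4 side at -2.70 and array 2 put it on the COC7 side at 0.97. This is so wherever the dye part is larger in size than the turned mean, as in 62.9% of all probes. With 1 COC a side and a spot that may lie near background, no order of the complexes is read from this probe.

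FST, the activin-binding protein, gave -2.08 for array 1 and -1.40 for array 2. Both lay on the Cy3 side and both were past 2-fold, at 4.22-fold and 2.64-fold. The dye part was -1.74, or 3.34-fold. The turned mean was -0.34, or 1.27-fold, on the COC4 side, with each array 1.74 away from it. Array 2 on its own, once turned, gave 1.40 on the COC7 side. The arrays thus pointed to opposite complexes for FST as well, again with a dye part larger in size than the turned mean.

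**Figure D1:**
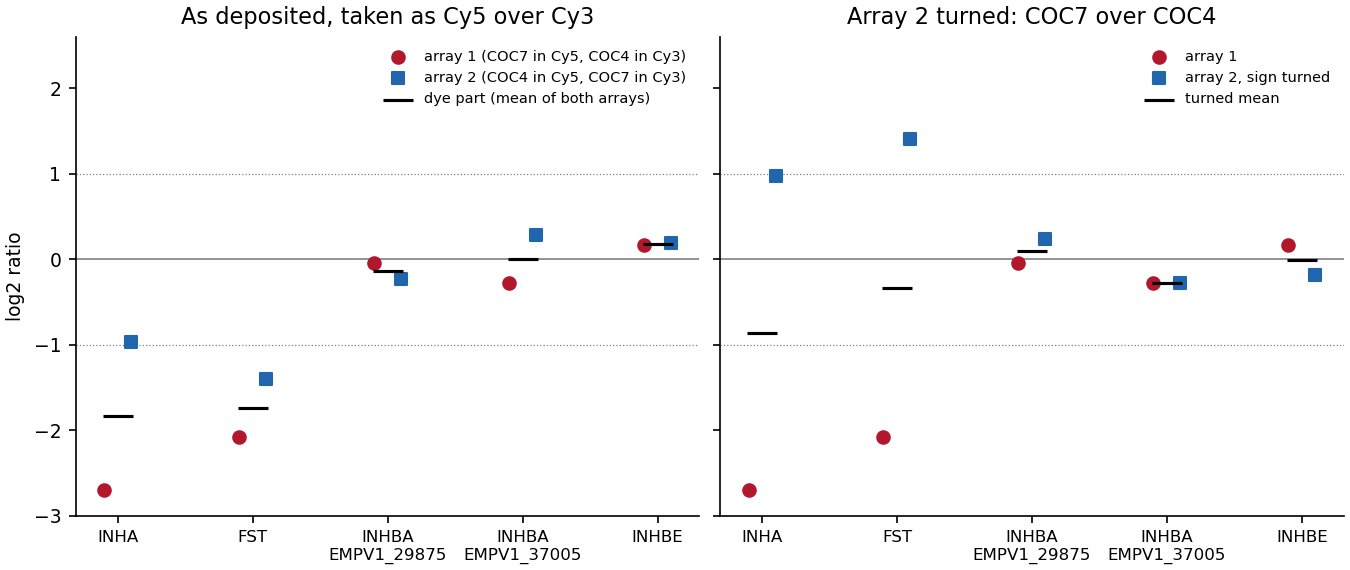
Log2 ratios of the INHA, FST, INHBA and INHBE probes on array 1 (circles) and array 2 (squares), as deposited on the left and with the sign of array 2 turned on the right; black bars are the means of both arrays and dotted lines mark 2-fold. INHA and FST lie below 0 on both arrays on the left, and on the right their arrays lie on opposite sides of 0, while the 3 beta subunit probes stay between -0.28 and 0.28 in each panel.

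Side by side, INHA and FST were closer in the dye part than in the turned mean. Their dye parts differed by 0.10 and their turned means by 0.52, both on the log2 scale. INHA was lower than FST by 0.62 on array 1, whereas on array 2 it was higher by 0.43. The dye part was 2.13 times the size of the turned mean for INHA and 5.11 times for FST.

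Among all 43794 transcript probes, the dye part of INHA ranked 8 and that of FST ranked 15 by size. A dye part at or past 2-fold below 0 was found for 82 probes, or 0.187% of the array, and both members were among them; this is what the members were chosen for, and nothing is read from it. In either direction there were 124 such probes, or 0.283%. On each array alone, INHA was the 5th lowest probe on array 1 and the 175th lowest on array 2, and FST the 16th and the 32nd lowest. FST but not INHA was one of the 39 probes, 0.0891%, that lay at or past 2-fold below 0 on each array.

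In the turned mean neither member reached 2-fold, which 76 probes, or 0.174%, did in either direction. INHA ranked 155 by the size of its turned mean, with 0.352% of probes farther from 0, and FST ranked 2978, with 6.80% of probes farther from 0. Within the 124 probes past 2-fold in the dye part, the median size of the turned mean was 0.24. INHA had the 10th largest turned mean of these and FST the 48th, so INHA carried more of a difference between the arrays than most probes of its kind and FST an amount nearer the middle.

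The whole table gives the scale for these values. The SD over transcript probes was 0.25 for the dye part and 0.19 for the turned mean, and the medians of both arrays lay within 0.0030 of 0. The dye part was larger in size than the turned mean in 62.9% of probes. Across probes, which are not independent replicates and share the arrays and the RNA, the values as deposited correlated with Pearson's r of 0.268 and Spearman's rho of 0.326.

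The probes around the members on the slide lay near 0 by their medians. Within 5 rows and columns of the INHA probe, which sits in row 3 of 170, 86 other probes had a median of -0.02 on array 1 and 0.00095 on array 2. The lowest of them was -0.81 on array 1 and -0.63 on array 2. Around FST, 116 probes had medians of -0.03 and -0.05, and the lowest were -1.80 and -0.64.

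The spike-in controls offer ratios that should hold no COC difference, since by the methods 1 spike mixture was labelled in Cy3 and the other in Cy5 and was added to the labelled samples. All 10 E1A spike-in RNAs, each printed on 32 spots, kept their sign on both arrays, with 4 below 0 and 6 above. The lowest, E1A n9, had means of -2.04 ± 0.13 on array 1 and -2.18 ± 0.10 on array 2 (SD over 32 spots of 1 array). The highest, E1A a22, had 2.49 ± 0.14 and 1.70 ± 0.14. The mixtures of such a kit hold the RNAs in different amounts by design, so the mean of both arrays holds that amount as well as any effect of the dye and is no measure of a dye effect. The kept signs show only that the ratio was formed the same way round on each array. The turned mean of these RNAs was not 0: it reached 0.39 for E1A a22. Among the 4 spike-ins past 2-fold in the mean of both arrays, the turned mean was 0.0355 to 0.189 of that mean in size. The spike-in E1A a20, with a mean of 0.39, reached 0.473. The same share was 0.196 for FST and 0.470 for INHA. For the spike-ins this share depends on the amounts in the kit, so the members cannot be placed by it. In the negative control spots the dye part did not exceed 0.50 in size over 153 spots, and in the dark corner spots, of which there were 604, it did not exceed 0.95. Both members lay outside these ranges, which follows from their choice by the dye part, so nothing is read from it.

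**Figure D2:**
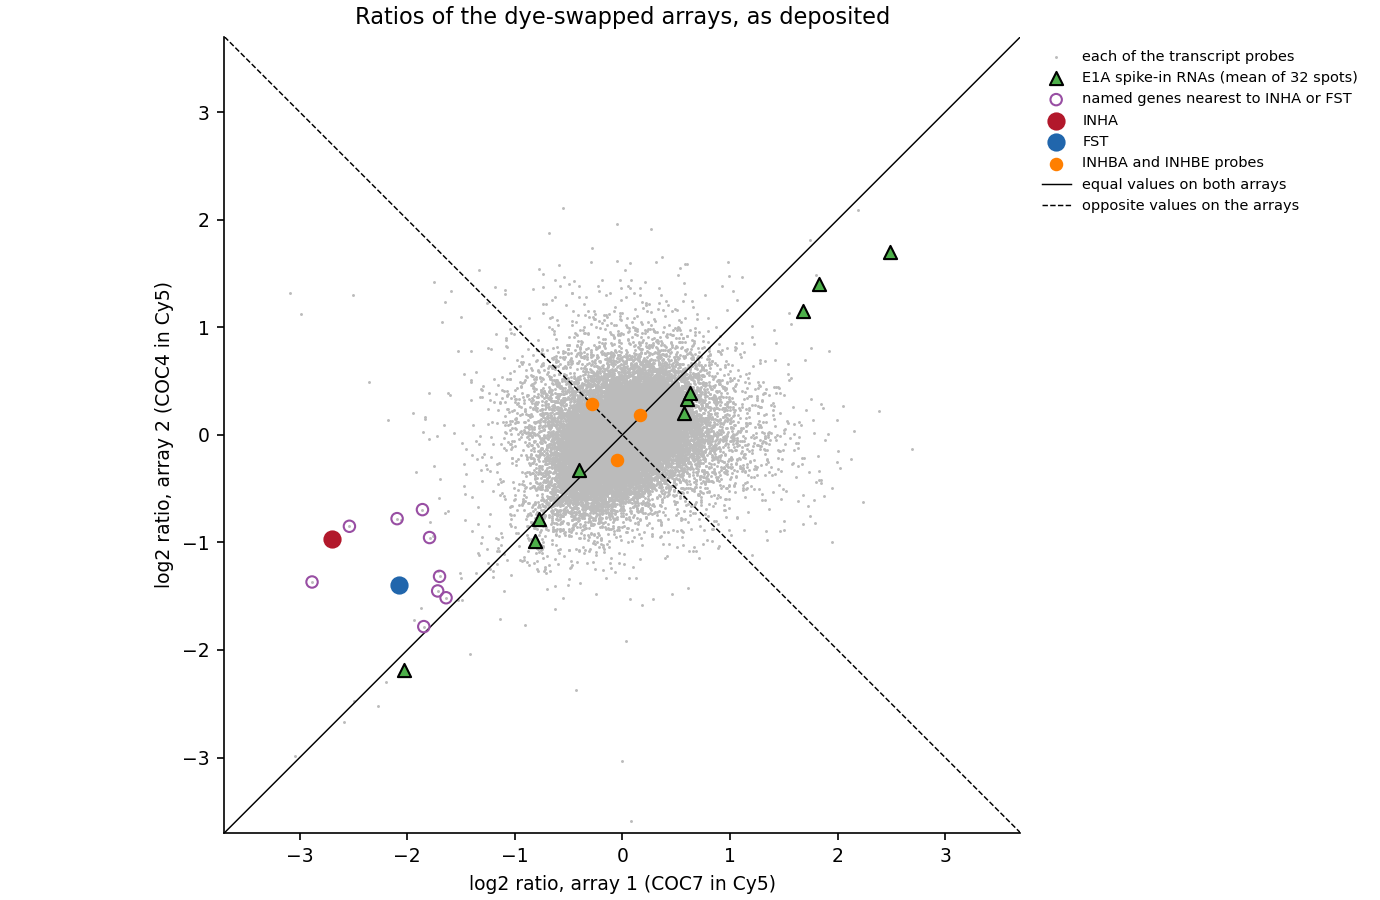
Log2 ratio of each of the 43794 transcript probes on array 1 (x axis) against array 2 (y axis), as deposited, with INHA (red), FST (blue), the INHBA and INHBE probes (orange), the named genes nearest to INHA or FST (open circles) and the 10 E1A spike-in RNAs (triangles, mean of 32 spots). INHA at -2.70 and -0.97 and FST at -2.08 and -1.40 lie far from 0 at the lower left, with FST nearer the line of equal values than INHA, and the beta subunits lie within the bulk of the probes.

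The beta subunits, with which INHA forms inhibin, did not share the large dye part by which INHA was chosen. INHBA encodes the beta A subunit of inhibin A and activin A and had 2 probes. The first, EMPV1_29875, had -0.05 on array 1 and -0.24 on array 2, with a dye part of -0.14 and a turned mean of 0.09. The second, EMPV1_37005, had -0.28 and 0.28, with a dye part of 0.00042. This was the only one of the 5 INHA, FST and INHB probes whose arrays took opposite signs as deposited, that is, whose arrays both pointed to COC4: its turned mean was -0.28, or 1.22-fold. The probes of INHBA disagreed on the side, so no direction between the complexes can be given for the gene. INHBE, a beta subunit gene best known from liver, had 0.17 on array 1 and 0.18 on array 2, with a dye part of 0.17, on the Cy5 side, and a turned mean of -0.0079. In size, the turned mean of EMPV1_37005 was exceeded by 9.79% of all probes, that of EMPV1_29875 by 46.8% and that of INHBE by 95.0%. INHBB and INHBC carry no probe under those symbols in the annotation used here.

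Named genes with the most similar pattern were taken as those with a probe nearest to INHA or FST in the plane of both arrays, by Euclidean distance over 2 values a probe. Nearest to INHA was AMY2, an amylase that digests starch, with -2.54 on array 1 and -0.85 on array 2, at a distance of 0.20. ITM2A, an integral membrane protein, followed at 0.44 with -2.89 and -1.37. HSPA5, the chaperone of the endoplasmic reticulum, had -2.09 and -0.78, at 0.63. These 3 genes also had a value nearer 0 on array 2 than on array 1. PLS3, an actin-bundling plastin, lay at 0.88, and GSTA1, a glutathione transferase, at 0.90. INHA and FST were 0.75 apart, and 4 probes lay nearer to INHA than FST did.

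FST had other neighbours. OLFML3, a secreted olfactomedin-like protein, lay at a distance of 0.37 with -1.72 on array 1 and -1.45 on array 2. RFX1, a DNA-binding regulatory factor, lay at 0.39, with -1.70 and -1.32. IHH, the hedgehog ligand known in mouse as a product of granulosa cells, had -1.85 and -1.78, which are almost equal, at a distance of 0.45. SLAMF6, a receptor of lymphocytes, was also at 0.45 and GSTA1 at 0.53. GSTA1 was the one gene near both members.

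Some neighbours had another probe, which the choice by distance did not use, whereas the nearest probe was far from 0 by that choice. Both probes of ITM2A lay on the Cy3 side on both arrays, with dye parts of -2.13 and -1.42. The second HSPA5 probe had -1.08 on array 1 and 0.12 on array 2, for a dye part of -0.48 against -1.44 for the first. PLS3 showed the same spread, with -1.28 and -0.41. The probes of IHH had dye parts of -1.81 and -0.47, and those of OLFML3 -1.58 and -0.28. INHA and FST have no second probe under these symbols.

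The activin and inhibin pathway was followed through 37 genes listed by role, of which 29 had a named probe. Apart from INHA and FST, 0 of the other 27 genes reached 2-fold in the dye part or in the turned mean, as the mean over the probes of a gene. With 0.283% of all probes past 2-fold in the dye part and 0.174% in the turned mean, few or no calls would be counted in a list of this size at those shares, so nothing is read from the 0. Their median was 0.02 for the dye part, with 16 genes above 0 and 11 below, against 0.0060 over all transcript probes. The median of the turned mean was -0.0094, with 11 above and 16 below, against 0.0031 over all transcript probes. By probe, 1 of 41 was past 2-fold in the dye part, and 0 in the turned mean.

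Among the binding proteins and coreceptors other than FST, BAMBI, a decoy receptor without a kinase domain, was farthest from 0, with a dye part of -0.48 as the mean of its 2 probes. It was the gene nearest to FST within this role, on the same side, and its turned mean was -0.08. TGFBR3, also called betaglycan, the coreceptor that lets inhibin compete with activin, had a dye part of 0.18 and a turned mean of 0.05. The third gene, IGSF1, had a dye part of 0.14.

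The receptors lay close to 0. The 5 activin receptor genes had dye parts from -0.13 to 0.11 and turned means from -0.18 to 0.20. The type I receptor genes ACVR1B, which serves activin, and ACVR1 were farthest from 0 in the dye part, at -0.13 and -0.12.

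Among the transducers, SMAD3, which carries the activin signal to the nucleus together with SMAD2, had a dye part of -0.41 and a turned mean of 0.10. SMAD2 had a dye part of 0.16 and a turned mean of -0.34, but its 2 probes differed, with turned means of -0.62 and -0.07. The other 3 genes of this role had dye parts between 0.0057 and 0.09.

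The proteases that cut the precursors of these ligands, FURIN, PCSK5 and PCSK6, had dye parts from -0.04 to 0.28, with FURIN highest and PCSK6 next at 0.05. Their turned means lay between -0.01 and 0.03.

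Genes of gonadotrophin reception and its relay, which control INHA in granulosa cells, lay nearer 0 than the members in the dye part. The members were chosen by that value, so nothing is read from this. CREB1, the factor that binds the cyclic AMP element, had the lowest dye part at -0.27, and GNAS, the stimulatory G protein subunit, the highest at 0.20 as the mean of 8 probes. Turned means of the 6 genes ran from -0.21 to 0.12, with 5 of 6 below 0, on the COC4 side, against 49.1% of all probes. Of these 5, 3 took opposite signs on the arrays as deposited, as 37.1% of all probes did. For CREB1, and for FSHR as the mean of 2 probes, the arrays pointed to opposite complexes. The FSHR probes differed: EMPV1_40712 had -0.37 on array 1 and 0.15 on array 2, and EMPV1_17838 had -0.33 and -0.19. FSHR, the receptor of follicle-stimulating hormone, had -0.16, and LHCGR, that of luteinizing hormone, -0.14.

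Of the other proteins with follistatin domains, 3 of 6 listed had a named probe. HTRA1, a secreted serine protease with such a domain, held the single probe of the list past 2-fold apart from the members, with a dye part of -1.02 and a turned mean of -0.73. Its other probe had a dye part of 0.17 and a turned mean of -0.0055, so the probes of this gene did not share a value. FSTL4 had a dye part of -0.13 and FSTL5 of 0.08.

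**Figure D3:**
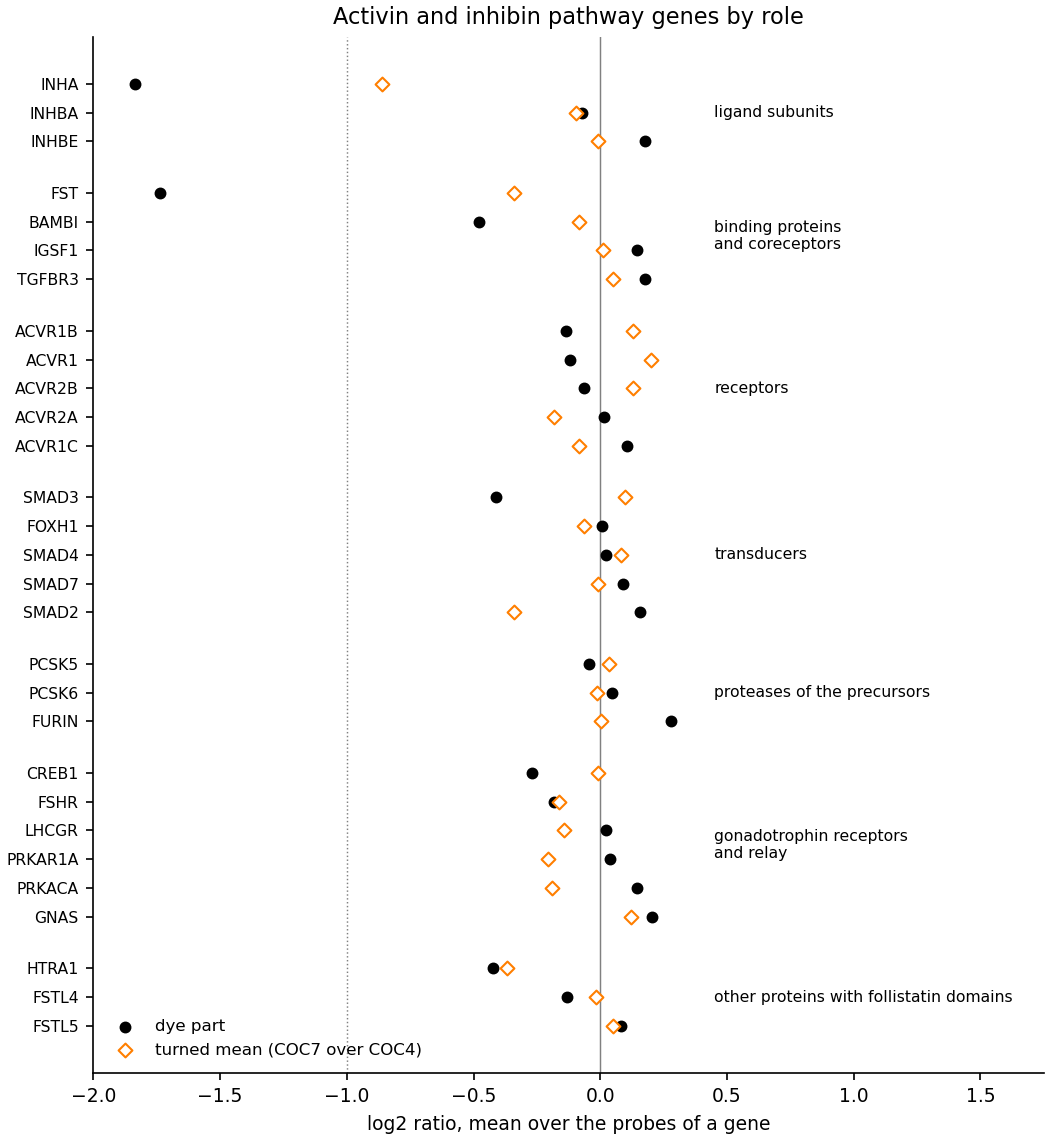
Dye part (filled circles) and turned mean (open diamonds) of the 29 pathway genes with a named probe, as log2 ratios averaged over the probes of a gene, grouped by role; the dotted line marks 2-fold below 0. INHA at -1.83 and FST at -1.74, which were chosen by the dye part, lie below the other 27 genes in it. As means over probes those 27 lie between -0.48 and 0.28, and 1 probe of HTRA1 alone had -1.02.

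The cell types that make these hormones were looked at through marker genes, as ratios only, so the identity of the complexes as cumulus-oocyte complexes could not be checked by level. Of 13 cumulus and granulosa markers, 9 had a named probe. In the turned mean 7 of the 9 lay on the COC4 side, where 49.1% of all probes lay. The median of the 9 was -0.16, with a range from -1.28 to 0.32. Of 9 oocyte markers, 8 had a named probe, with a median turned mean of 0.20. On the COC4 side lay 2 of the 8, against 49.1% of all probes, and 6 lay on the COC7 side. Opposite signs on the arrays as deposited were taken by 3 of the 8, near the 37.1% of all probes. For the other 5 the arrays pointed to opposite complexes. In the dye part 7 of these 8 oocyte markers lay below 0, with a median of -0.37, against 0.04 for the cumulus and granulosa markers. The median dye part over all transcript probes was 0.0060. Theca, stroma and vessel markers had a median of -0.08 in the dye part and -0.06 in the turned mean over 7 genes. One of them, ACTA2, the actin of smooth muscle and stromal cells, had -1.24 on array 1 and -0.85 on array 2. It lay on the Cy3 side, as INHA and FST did, with a dye part of -1.04. Of the 27 markers it was the only one past 2-fold in the dye part, against 0.283% of all probes. In the turned mean 2 of the 27 were past 2-fold, against 0.174% of all probes. These were the cumulus and granulosa markers TNFAIP6 at -1.28 and NR5A2 at -1.12, on the COC4 side. With 27 markers nothing is read from either count. Blood and immune markers had medians of 0.06 and 0.05 over 3 genes. The turned means of INHA and FST lay on the same side as most cumulus and granulosa markers, as did those of 49.1% of all probes. Nothing is read from that side for the members. As deposited, 6 of these 9 markers took opposite signs on the arrays, against 37.1% of all probes, and the members did not. TNFAIP6, a protein of the expanding cumulus matrix, had -0.68 on array 1 and 1.87 on array 2. HAS2, which makes the hyaluronan of that matrix, had -0.47 and 1.31. PTX3, another of the cumulus and granulosa markers, went the other way. It had 0.78 on array 1 and 0.13 on array 2, with a turned mean of 0.32 on the COC7 side. The part of cell composition in the values of INHA and FST was not tested, and with RNA of whole complexes, fewer cells of a type and less RNA per cell cannot be told apart.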

How the data were processed

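RNA of COC7 and COC4 was hybridized in both dye orientations, as 2 arrays. The authors isolated RNA, amplified it in a linear T7 reaction (RiboAmp HS Plus), attached Cy3 and Cy5 by a chemistry (ULS) that binds guanine, and scanned on an Axon scanner. Images were read in GenePix Pro 6.0, background was subtracted, and values were normalized within and across arrays and analysed with limma in FlexArray 1.6. The deposited values are log2 ratios; the base was read from the position of the 2-fold lines in the study's plots, and normalization method, centring and direction are not given in these sources. Amplification and direct labelling may each shift a ratio; their part was not tested. Arrays give no depth, and their number limits the precision.

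Gene symbols came from the platform annotation, which can be old; 18121 of 43794 transcript probes had 1 symbol and the others none. The study's list of spots above background in COC also carries symbols. As far as it was used, 1205 of 1205 compared probes had the same symbol. The platform annotation was submitted by the same study, so this match is no independent check of the names. Another deposited table, with 45220 spots, gave the control spots. Its columns name arrays only by number and were assigned because all 43794 probe values equal those of the labelled columns on both arrays; a swap would exchange the spike-in values of array 1 and array 2 and turn the sign of their turned means, but not change their dye parts.

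The dye part, turned mean, ranks and distances were computed in Python with pandas and scipy. The calculation was tested on simulated data. Counts used 2-fold, the fold the study used for the same contrast. With 1 COC a side there are no degrees of freedom and no test was run. Named are all INHA, FST and INHB probes, in each pathway role the 2 genes farthest from 0 in the dye part and any past 2-fold, and the 5 symbols nearest to each member; the other genes, probes and markers named were chosen after their values were seen. The members and lists were chosen with earlier results of these data known.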

Additional observations from a re-analysis of the deposited data

How the results depend on the processing

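INHA and FST kept their side in the dye part and the turned mean when both arrays were centred on the transcript probes or on the dark corner spots, when the median of each slide block was removed, when the arrays were scaled to the same SD, and in the other deposited table. All 20 of these values lay nearer to the reported value than the arrays did. For the turned mean that distance is the size of the dye part, which is larger than the turned mean of either member. A turned mean could therefore change sides and still be counted, so the 20 is no measure of robustness. The other deposited table holds the same value for all 43794 probes on both arrays, so its values among the 20 could not differ. The dye part ranged from -1.84 to -1.78 for INHA and from -1.74 to -1.72 for FST. The turned mean ranged from -0.86 to -0.73 for INHA and from -0.35 to -0.22 for FST. On single arrays (leave-one-out), the dye part of INHA was -2.70 and -0.97 and that of FST -2.08 and -1.40, and the turned mean changed sides, from -2.70 to 0.97 for INHA and from -2.08 to 1.40 for FST. At 1.5-fold in place of 2-fold, 1228 probes in place of 124 passed in the dye part and 746 in place of 76 in the turned mean. Spearman's rho was 0.326 beside Pearson's r of 0.268. For the INHB probes, 27 of 46 values under the alternatives moved by less than the distance between the mean and either array. Unlike the 20 values of the members, these 46 include the single arrays, which lie at that distance by construction. For the turned mean of EMPV1_37005 that distance is only 0.00042, so very small shifts counted as moved. The count for the INHB probes therefore cannot be set beside that for the members. With the angle in place of the distance, 4 of the 5 genes nearest to INHA were found again and 0 of the 5 nearest to FST. No paired analysis was possible because each side holds 1 COC.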

Other observations

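When likeness was taken as the angle in the plane of both arrays, that is, the balance between the arrays, among probes at least 0.5 times as far from 0 as the member, the genes nearest to FST were of other kinds. ACTA2, smooth muscle actin and one of the stroma markers, had -1.24 on array 1 and -0.85 on array 2, and lay 0.456 degrees from FST. INSIG1, which holds back cholesterol synthesis, had -1.05 and -0.73. FXYD6, a regulator of the sodium pump, had -1.31 and -0.95. TBXAS1 had -1.34 and -0.83, and SIRT5 had -1.32 and -1.01. These 5 genes lay on the Cy3 side on both arrays, which the choice by angle sets, at smaller ratios than FST. INSIG1 has 4 probes and TBXAS1 has 2, of which only the nearest is given. RND3, a small GTPase, had -1.47 and -0.55 and was the one gene that the angle added near INHA.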
